A study of Homo sapiens with 18 samples.

Results

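Homologous recombination repairs broken DNA by copying a sister chromatid, and the Fanconi pathway unhooks crosslinks between DNA strands and hands the resulting break to that machinery. The 33 genes described here encode 8 proteins of damage sensing and checkpoint signalling, 3 of end resection, 5 around BRCA1 and BRCA2, 7 of strand exchange, 7 of the Fanconi core complex and its anchor, both subunits of the ID2 complex, and the mismatch repair protein MSH6. They were chosen by name, and all 33 were found among the 62703 genes of each library through their Ensembl identifiers.

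The RNA came from MDA-MB-231, an established human triple-negative breast cancer cell line, in 5 groups of 2 libraries. Cells of the control shRNA, shEZH2 and shE2F1 groups were transduced with lentivirus for 24 h and selected in 2 ug/ml puromycin for 72 h, and the DMSO and GSK126 groups received the solvent or 1 uM of GSK126, an inhibitor of the EZH2 methyltransferase, for 72 h. EZH2 is the catalytic subunit of the repressive complex PRC2, E2F1 is a transcription factor that drives genes of the G1/S transition, and the study asks what EZH2 does together with E2F1 apart from its methyltransferase activity. The labels do not say whether the replicates of a group were separate cultures, so the p-values measure the spread between these libraries, which may be technical. Every result holds for 1 line and, for each target, 1 labelled knockdown group. The paper lists 1 shRNA sequence per target, so effects of the sequence on other genes cannot be told apart from loss of the target.

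The order of events gives the members their roles. The MRE11-RAD50-NBN complex recognises an end and recruits the kinase ATM, RBBP8 (CtIP) and EXO1 trim the end to single-stranded DNA, TOPBP1 activates the kinase ATR there, and CHEK1 and CHEK2 relay the signal to the cell cycle. BRCA1 with BARD1, bridged by PALB2, brings BRCA2 to the resected end, and RAD51C, RAD51D, XRCC2, XRCC3 and RAD54L then promote strand invasion. In crosslink repair the core complex adds ubiquitin to FANCD2 and FANCI through the ligase FANCL, and many of these genes are transcribed most in S phase, when a sister chromatid is available.

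Total counts were 13198932 to 20055550 per library, so that 3 counts, taken as the detection floor, correspond to 0.150 to 0.227 counts per 1000000 (CPM), and all 33 members passed the filter on low counts in every comparison. Both targets fell in their own knockdown: EZH2 stood at 153 and 181 CPM in control and at 52.6 and 44.8 in shEZH2 libraries, and E2F1 at 143 and 138 CPM in control and at 26.0 and 22.5 in shE2F1 libraries. EZH2 depletion also lowered E2F1, to 62.4 and 32.3 CPM (log2 fold change -1.59 ± 0.23 (SE), n = 2 per group, edgeR adjusted p = 0.000172), with shEZH2 replicate 2 the lower. In shE2F1 libraries EZH2 was at 121 and 137 CPM, below both control libraries (log2 fold change -0.37, edgeR adjusted p = 0.0227, not under 0.01). Of the line's markers, VIM, CD44, AXL and MSN were at 168.6 transcripts per 1000000 (TPM) or more in every library while SPARC reached only 4.26. Of 8 markers of luminal, HER2-positive or epithelial cells, ESR1, PGR and FOXA1 were at or near 0 and CDH1 at 0.26 to 4.5 TPM, GATA3 was at 5.86 to 13.8, EPCAM at 12.4 to 37.7 and ERBB2 at 20 to 35.6, and KRT8 was at 1126 or more. These markers moved with the knockdowns, and their part in the members' changes was not tested: in shEZH2 VIM (log2 fold change -1.33) and AXL (-1.83) were called lower, in shE2F1 AXL (-2.23), SPARC (-3.83) and EPCAM (-1.24), and CDH1 was called higher in both (2.23 and 3.91).

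Promoters of 3 members, picked by their results, are shown. FANCD2 and BRCA1 differed most between the knockdowns, and FANCA is the member with an E2F motif that passed the test in the E2F1 knockdown. With a correction for GC content and transcript length FANCA did not pass. A part of the motifs in these changes was not tested. Sequences are from RefSeq on GRCh38.p14, 5′ to 3′ on the gene's strand, from position -250 to 20 around the annotated start (1 is the first transcribed base). Capitals mark the E2F motif (TTTCCCGC, TTTCGCGC, TTTGCCGC or TTTGGCGC, on either strand) and the CCAAT box (CCAAT or ATTGG); they do not overlap in these windows.
FANCD2 (plus strand, chr3:10026187-10026456): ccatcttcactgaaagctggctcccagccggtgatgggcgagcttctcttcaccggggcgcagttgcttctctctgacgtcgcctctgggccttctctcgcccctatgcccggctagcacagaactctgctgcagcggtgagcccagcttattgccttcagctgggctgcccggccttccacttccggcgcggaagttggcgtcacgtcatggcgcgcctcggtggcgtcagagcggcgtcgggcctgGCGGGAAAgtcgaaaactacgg
FANCA (minus strand, chr16:89816628-89816897): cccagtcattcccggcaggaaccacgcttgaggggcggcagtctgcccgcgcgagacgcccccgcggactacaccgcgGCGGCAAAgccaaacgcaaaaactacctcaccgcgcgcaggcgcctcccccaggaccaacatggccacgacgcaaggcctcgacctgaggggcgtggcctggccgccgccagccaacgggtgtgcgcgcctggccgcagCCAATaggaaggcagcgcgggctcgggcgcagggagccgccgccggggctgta
BRCA1 (minus strand, chr17:43125345-43125614): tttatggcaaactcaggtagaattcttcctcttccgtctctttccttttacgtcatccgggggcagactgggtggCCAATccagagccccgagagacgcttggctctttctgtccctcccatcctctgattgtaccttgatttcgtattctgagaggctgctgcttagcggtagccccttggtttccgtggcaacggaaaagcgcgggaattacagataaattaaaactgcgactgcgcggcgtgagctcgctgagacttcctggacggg

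FANCD2 held 1 E2F motif, which began at position -2, and no CCAAT box. FANCA held an E2F motif at -172 and a CCAAT box at -33. BRCA1 had 2 windows in the table, neither with an E2F motif of these exact letters, and the one shown held a CCAAT box at -175. Windows of 300 bases were listed for 30 of the 33 members (not for RAD54B, FANCI and NBN). An E2F motif lay in 7 of the members' 43 windows (16.3%), against 4.92% of the 15926 windows of genes tested and 3.31% of all 35116 windows. The genes that held it were EXO1, MSH6, FANCD2, TOPBP1, XRCC2, FANCC and FANCA. A CCAAT box lay in 19 of the 43 (44.2%), against 34.6% for genes tested, and TTTGAA, the core of the CHR element of late cell-cycle genes, in 3 of the 43 (6.98%), against 10.5%. These are matches of exact letters and not measured sites of binding. Variants of the letters were not searched for, so a window without a match may still hold a site.

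Per unit of transcript length, MSH6, which recognises base mismatches, had the highest median of the members, 80.7 TPM over the 10 libraries (range 57.9 to 84.9). FANCI followed at a median of 55.5 TPM and RBBP8 at 52.3, and the ranges of both overlapped each other, that of MSH6 and that of RAD51AP1, at 43.7. The BRCA transcripts sat lower, with medians of 17.5 TPM for BRCA1, 10.7 for BARD1, 9.78 for PALB2 and 9.10 for BRCA2. FANCF, the core complex subunit, was lowest at 2.94 TPM (1.15 to 3.95), below every library of each other member. In the middle of the order, neighbours could not be separated by their spread.

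**Figure D1:**
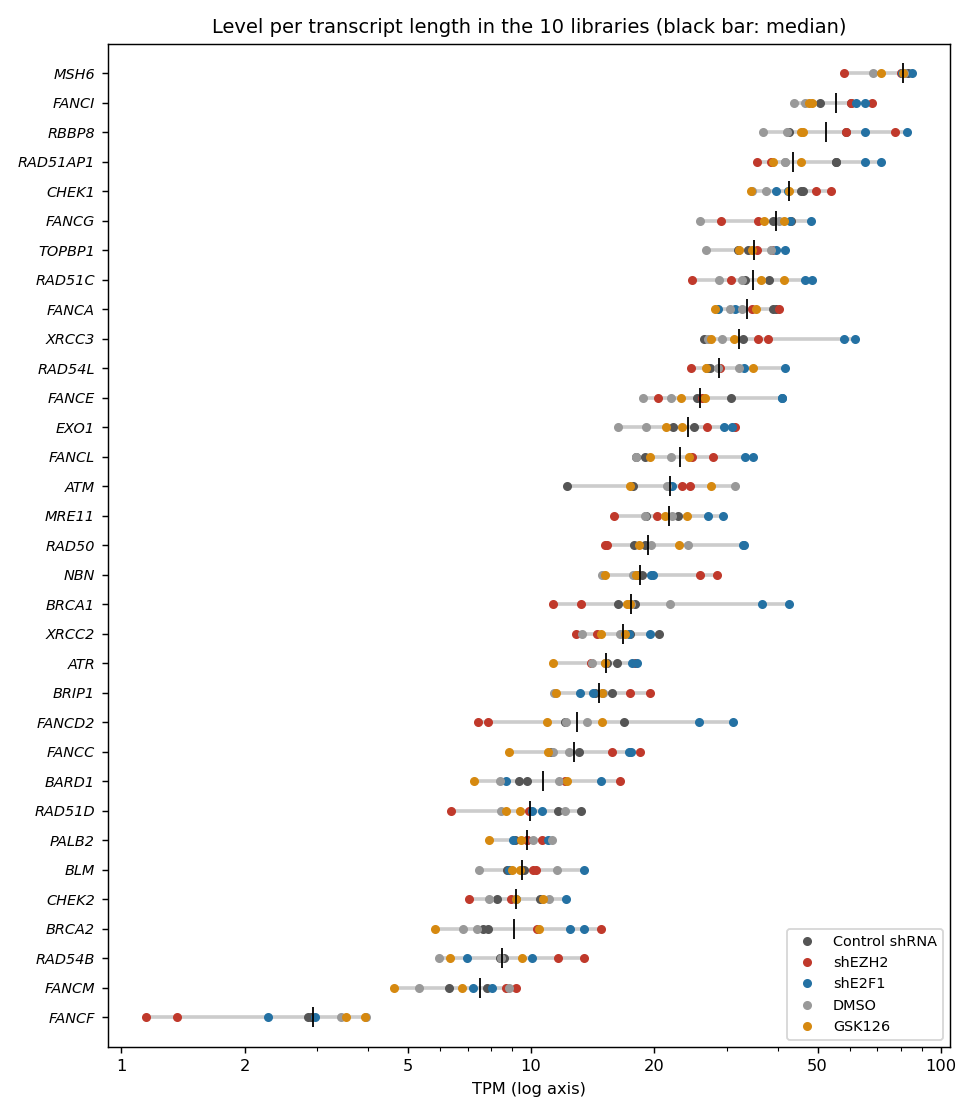
TPM (log axis) of each of the 33 members in the 10 libraries, coloured by group, with the range as a grey line and the median as a black bar. MSH6 has the highest median, 80.7 TPM, and FANCF the lowest, 2.94; BRCA1 and FANCD2 span the widest ranges, with shE2F1 libraries at the high end and shEZH2 libraries at the low end.

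EZH2 depletion lowered a subset of the members, and none rose past 2-fold. "Called" below means past 2-fold with an edgeR adjusted p under 0.01, as the study set its threshold, and "fell" and "rose" mean an adjusted p under 0.01 at any fold. In shEZH2 against control shRNA, 10 of 33 members fell and 1 rose, where 21.5% of all 15373 genes tested fell and 20.2% rose. Of these, 2 members (FANCD2 and FANCF) were called lower and 0 higher, against a background of 10.7% and 7.52%, so that the share called lower did not exceed that of genes at large. The median log2 fold change of the members was -0.20, and that of all genes tested was -0.02. In bulk RNA, fewer cells that express a gene and less RNA of it per cell cannot be told apart.

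FANCD2, the subunit of the ID2 complex whose ubiquitination switches the Fanconi pathway on, showed the clearest loss. It was at 34.3 and 39.8 CPM in control libraries and at 16.0 and 12.8 in shEZH2 libraries. Both shEZH2 libraries lay below every other library, and the log2 fold change was -1.38 ± 0.14 (SE, n = 2 per group, edgeR adjusted p = 2.26e-05). FANCI, its partner in the complex, was at 103 and 129 CPM in control and at 99.5 and 107.6 in shEZH2 libraries. Those groups overlapped, and its log2 fold change of -0.18 had a 95% interval of -0.43 to 0.08. With a correction for GC content and transcript length, however, FANCI fell (-0.46, edgeR adjusted p = 0.0034), and with an effective length offset it was at 0.02. FANCD2 passed in both settings, at -1.62 and -1.11.

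Among the 7 genes of the core complex, 3 fell and none rose. FANCF, an adaptor that holds the complex together, was at 6.19 and 6.66 CPM in control and at 2.64 and 2.30 in shEZH2 libraries (log2 fold change -1.40 ± 0.24 (SE), n = 2 per group, edgeR adjusted p = 0.000645). Both shEZH2 values were the lowest of the 10 libraries. FANCG and FANCE, further core subunits, fell by 0.73 and 0.57 on the log2 scale (edgeR adjusted p = 0.0017 and 0.0056), but neither passed when shEZH2 replicate 2 or control shRNA replicate 2 was left out. FANCA, FANCL, FANCM and FANCC did not pass, with log2 fold changes from -0.17 for FANCA to 0.37 for FANCC (adjusted p = 0.0105).

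In the strand exchange group 5 of 7 members fell and none rose, with a median log2 fold change of -0.65. All 7 values were below 0, but XRCC3 turned to 0.15 with a correction for GC content and transcript length and to 0.13 with an effective length offset, and RAD54B to 0.37 with that offset. RAD51AP1, which stimulates strand invasion, was at 54.3 and 58.9 CPM in control and 31.3 and 36.9 in shEZH2 libraries (log2 fold change -0.74, edgeR adjusted p = 0.000235). RAD51D (-0.81), XRCC2 (-0.70) and RAD51C (-0.64) and the translocase RAD54L (-0.65) had adjusted p-values from 0.000596 to 0.00342. RAD51D and XRCC2 are subunits of the same complex of strand exchange, and RAD51C belongs to this complex and to a further one with XRCC3. XRCC3, at -0.27 (adjusted p = 0.035), and RAD54B, at -0.08, did not pass. RAD51C no longer passed without shEZH2 replicate 1, shEZH2 replicate 2 or control shRNA replicate 2, nor RAD54L without shEZH2 replicate 2.

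BRCA1, the ubiquitin ligase that commits an end to recombination, fell from 40.0 and 45.9 CPM in control to 28.3 and 23.8 in shEZH2 libraries. Its log2 fold change was -0.74 ± 0.12 (SE, n = 2 per group, edgeR adjusted p = 0.000435), and its groups did not overlap. BRCA2, which prepares the resected strand for invasion, was at 39.8 and 42.3 CPM in control and at 53.2 and 50.02 in shEZH2 libraries, a log2 difference of 0.32 that missed the threshold (adjusted p = 0.0182) although the groups did not overlap. PALB2, which bridges BRCA1 and BRCA2, was at 18.6 and 21.1 CPM in control and at 17.4 and 13.1 in shEZH2 libraries (log2 difference -0.40, adjusted p = 0.0527). BARD1 (-0.25) and the helicase BRIP1 (0.05) did not pass either. With the GC and length correction 4 of these 5 fell, BRIP1 among them (-0.42, edgeR adjusted p = 0.00451), and BRCA2 turned to -0.17.

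Of the 8 genes of damage sensing and checkpoint signalling 0 fell and 1 rose. With the GC and length correction, however, 3 fell, MRE11 (-0.63), RAD50 (-0.60) and ATR (-0.50), and 0 rose. NBN, the regulatory subunit of the end-binding complex, was at 53.3 and 56.4 CPM in control and 68.7 and 75.6 in shEZH2 libraries, and its log2 fold change of 0.38 (edgeR adjusted p = 0.00621) turned to -0.065 with that correction. ATM was at 83.7 and 63.8 CPM in control and at 90.8 and 93.0 in shEZH2 libraries (log2 difference 0.30, adjusted p = 0.06, and -0.16 with the correction). The control libraries of ATM thus differed from each other more than the shEZH2 libraries did. ATR was at 52.7 and 55.8 CPM in control and at 55.2 and 48.1 in shEZH2 libraries, with overlapping groups and a 95% interval of the log2 difference of -0.32 to 0.14. CHEK1, the effector of ATR, was at 65.1 and 71.7 CPM against 70.5 and 74.9, also overlapping. CHEK2, the effector of ATM, was at 7.78 and 9.65 CPM against 6.10 and 6.56, a log2 difference of -0.47 (adjusted p = 0.0631). All 3 genes of end resection, RBBP8, EXO1 and the helicase BLM, lay between -0.03 and 0.26 and did not pass, and MSH6, at -0.48, narrowly missed the threshold (adjusted p = 0.0108), which it passed with the correction, at -0.88.

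**Figure D2:**
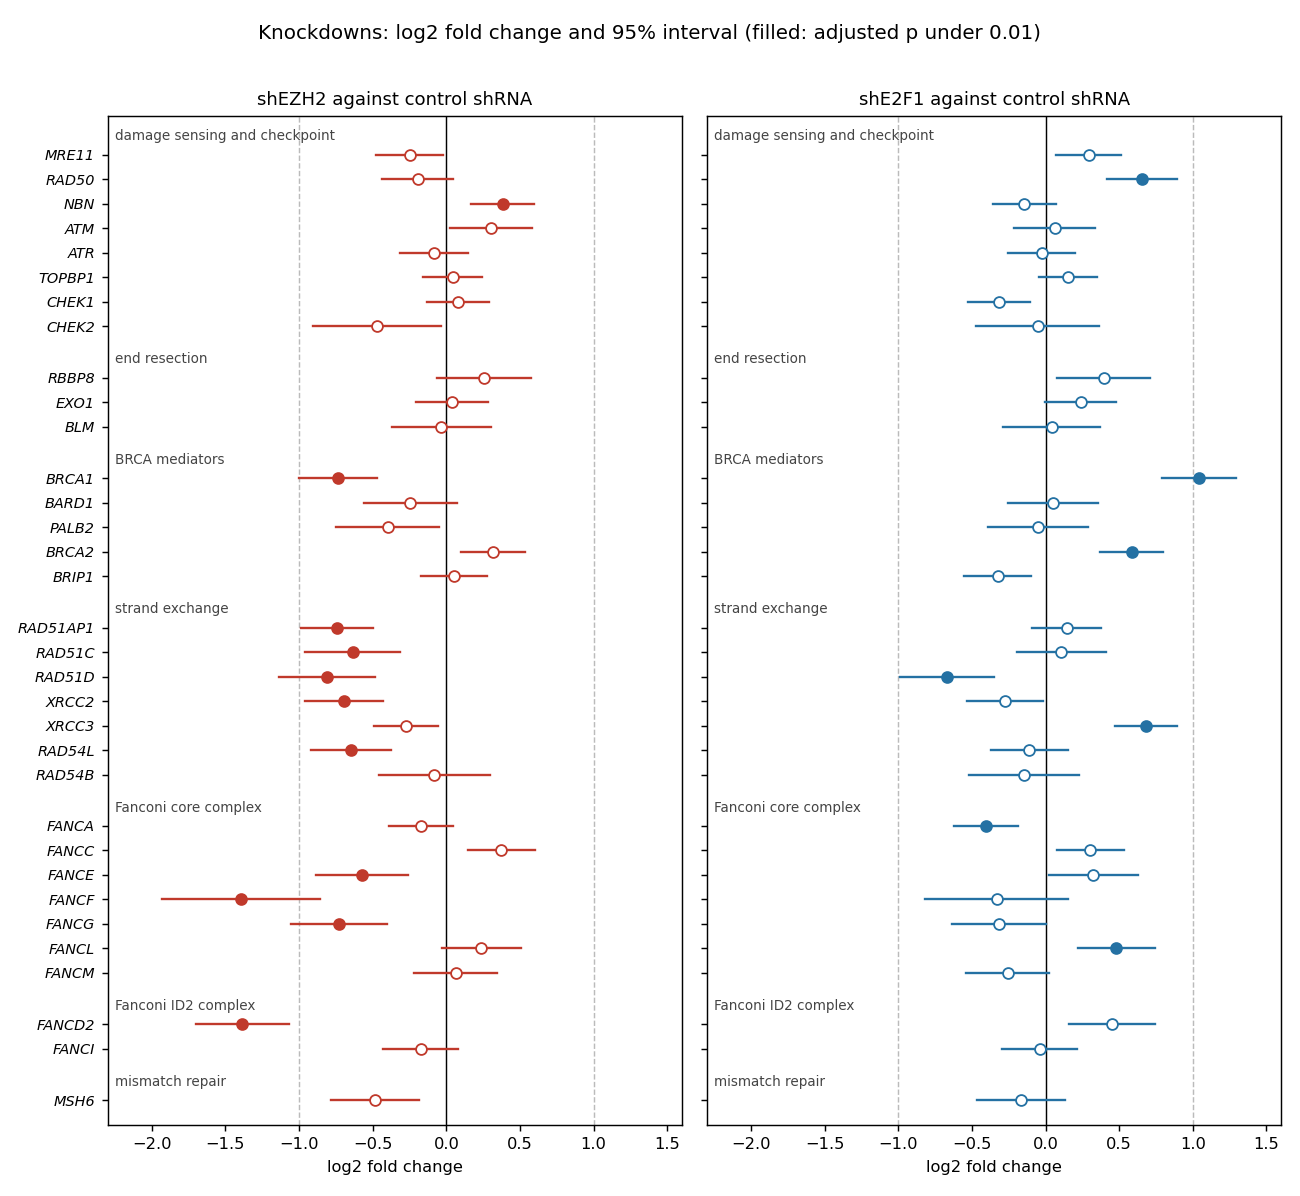
Log2 fold change (x axis) with its 95% interval for each member, ordered by role, in shEZH2 (left) and shE2F1 (right) against control shRNA, with filled points at an adjusted p under 0.01 and dashed lines at 2-fold. On the left 10 members are filled below 0 and NBN above; on the right 2 are filled below 0 and 5 above, with BRCA1 at 1.04.

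Leaving out shEZH2 replicate 2 reduced the members that passed from 11 to 6, whereas FANCD2 and FANCF stayed called without any 1 library. With the correction for GC content and length, 17 members fell and 0 rose, with 4 called. The median was -0.43, against -0.06 for all genes tested. In this setting 10 of the 33 directions turned, all from above 0 to below except that of XRCC3. With the effective gene lengths of the deposited files as an offset (an alternative added after seeing the data) 7 fell, 0 rose and 6 directions turned. The median was then -0.07, against -0.02 for all genes tested. The shares of all genes that fell or rose were not counted under either setting, so these counts of members have no background. The members' transcripts had a lower median GC content than those of all genes tested (41.6% against 48.0%) and were longer (median of the longest transcript 5240 against 3547 bases).

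In shE2F1 against control shRNA, 2 of the 33 members fell and 5 rose (6.06% and 15.2%), where 16.5% of all genes tested fell and 13.6% rose. The share that rose was thus near that of genes at large. BRCA1 was the 1 member called, higher, and 0 were called lower. Of all genes 5.6% were called higher and 5.96% lower, so that the shares of members called did not exceed those of genes at large. The median of the members was 0.04, against -0.00 for all genes, and it lay between -0.11 and 0.13 when single libraries were left out. The members' summed TMM-scaled CPM was 1796 and 1817 in the shE2F1 libraries, against 1607 and 1737 in control. As a share of unscaled totals it was 0.193% and 0.197%, against 0.156% and 0.163%.

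BRCA1 was at 86.5 and 91.0 CPM in the shE2F1 libraries, against 40.0 and 45.9 in control. Both values were above those of every other library, and the log2 fold change was 1.04 ± 0.11 (SE, n = 2 per group, edgeR adjusted p = 4.44e-05). The rise passed the test without any 1 library, but without control shRNA replicate 1 it was 0.94, just under 2-fold. BRCA2 rose to 60.8 and 63.1 CPM from 39.8 and 42.3 (log2 fold change 0.58, edgeR adjusted p = 0.00068), and without shE2F1 replicate 2 its adjusted p was 0.0147. PALB2, at 19.3 and 19.2 CPM against 18.6 and 21.1, lay inside the control range.

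XRCC3, of the strand exchange group, rose by a log2 fold change of 0.68 (edgeR adjusted p = 0.000224), from 43.3 and 42.5 to 71.5 and 66.8 CPM. RAD50, the ATPase of the end-binding complex, rose by 0.65 (edgeR adjusted p = 0.000642), from 62.6 and 54.7 to 97.3 and 88.2 CPM, but not past the threshold without shE2F1 replicate 1. FANCL, the ubiquitin ligase of the core complex, rose by 0.48 (edgeR adjusted p = 0.00761), and it passed in none of the 4 fits with 1 library left out. RAD51D (-0.67, edgeR adjusted p = 0.0034) and FANCA (-0.41, edgeR adjusted p = 0.00672) fell. FANCA no longer passed in any of the 4 fits with a library left out, and RAD51D in 3 of the 4. With the GC and length correction 0 of the 7 core genes fell and 2 rose, so that FANCA did not pass. In that setting 2 of the 33 members fell and 6 rose, with 1 of the 8 genes of damage sensing and checkpoint signalling among those that fell.

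FANCD2 was at 47.6 and 54.2 CPM in the shE2F1 libraries, above both control libraries, with a log2 difference of 0.45 that missed the threshold (edgeR adjusted p = 0.0166). FANCF, at 4.55 and 5.71 CPM against 6.19 and 6.66, gave -0.33 with a 95% interval of -0.82 to 0.15. FANCI was at 107 and 120.1 CPM, within the control range. CHEK1, at 55.2 CPM in both shE2F1 libraries, was below both control libraries, with a log2 difference of -0.32 (adjusted p = 0.0199). ATM, at 74.1 and 80.9 CPM, and ATR, at 54.3 and 52.8, overlapped control, as did CHEK2, at 7.71 and 9.16. The 7 members with an E2F motif had a median log2 fold change of 0.15 in shE2F1, from -0.41 to 0.45. Of them 1, FANCA, passed the test, though not with the GC and length correction.

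**Figure D3:**
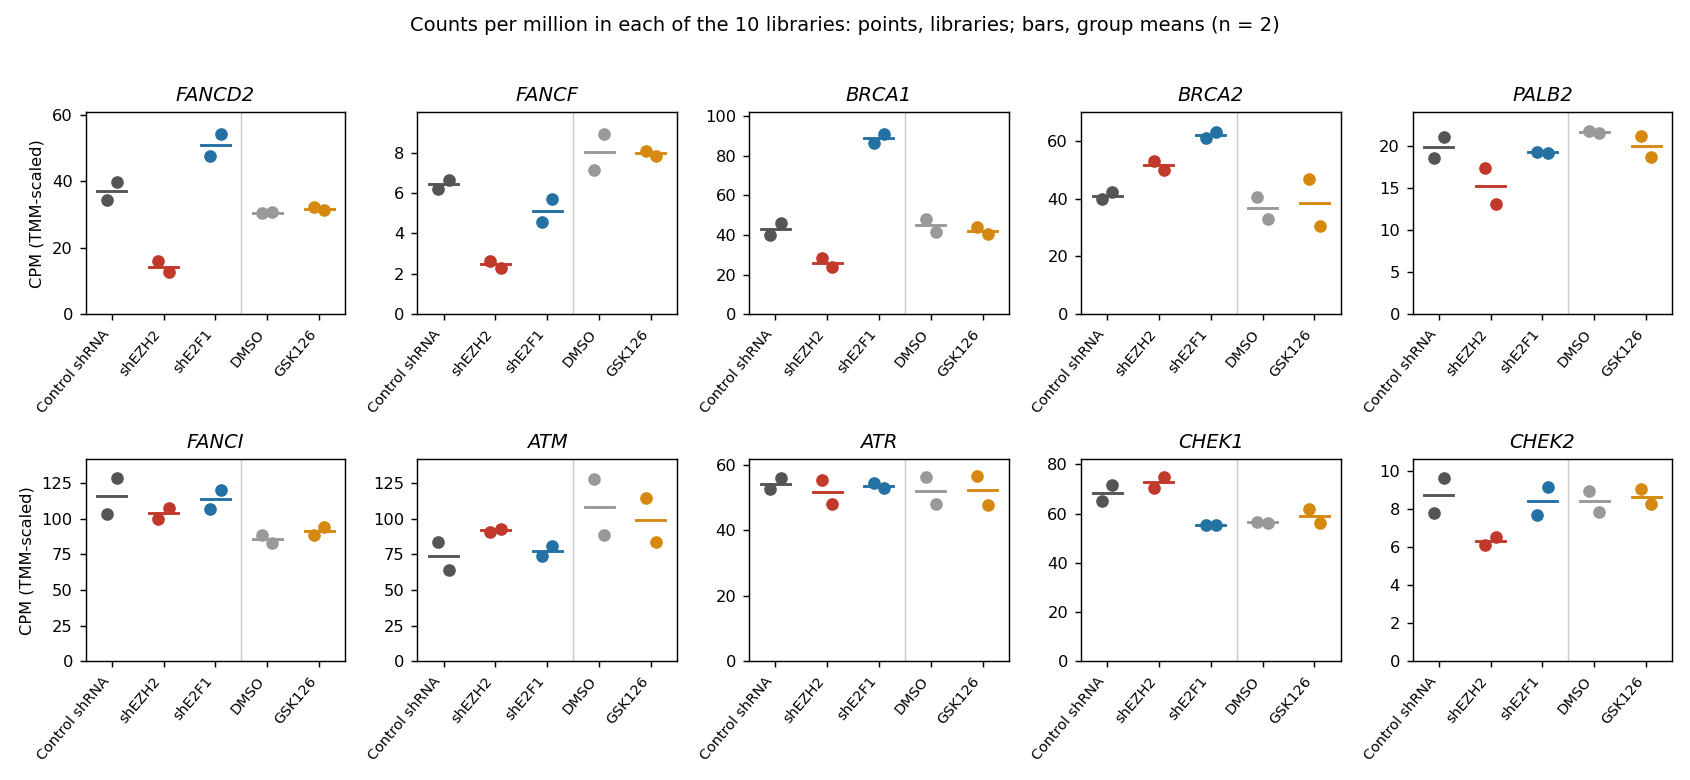
TMM-scaled CPM (y axis, from 0) of 10 members in each of the 10 libraries, with points for libraries and bars for group means (n = 2). FANCD2 is at 16.0 and 12.8 in shEZH2 and 47.6 and 54.2 in shE2F1 libraries, BRCA1 at 28.3 and 23.8 and at 86.5 and 91.0, while DMSO and GSK126 libraries lie close together.

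Both knockdowns share the control libraries, so their changes are set side by side only, and the knockdowns were also tested against each other directly. In either knockdown 16 members passed, and 2 passed in both: RAD51D was lower in both, and BRCA1 was lower in shEZH2 and higher in shE2F1. Of all 15373 genes tested, 6413 passed in shEZH2 and 4620 in shE2F1. How many of them passed in either or in both was not counted, so the overlap of the members has no background. In shEZH2 against shE2F1, 10 members were lower and 3 higher, against 23.2% and 23.3% of all genes, and 3 were called lower and 0 higher, against 12.9% and 10.4%. The members called were FANCD2 (log2 difference -1.84 ± 0.14, edgeR adjusted p = 2.05e-06), BRCA1 (-1.78 ± 0.12, edgeR adjusted p = 8.29e-07) and FANCF (-1.06 ± 0.25, edgeR adjusted p = 0.00332; ± is the SE, n = 2 per group). The other members that were lower in shEZH2 were XRCC3 (-0.95), FANCE (-0.90), RAD51AP1 (-0.88), RAD50 (-0.85), RAD51C (-0.74), RAD54L (-0.54) and MRE11 (-0.54). NBN (0.53), CHEK1 (0.39) and BRIP1 (0.38) were higher in shEZH2 than in shE2F1, but none of these 3 passed with the GC and length correction, where NBN was at 0.078, CHEK1 at 0.23 and BRIP1 at -0.11. With 1 library left out BRIP1 passed in 0 of 4 fits, and CHEK1 failed in 3 and NBN in 2 of the 4. For RAD51D the direct difference was -0.14 with a 95% interval of -0.47 to 0.19. FANCF no longer passed without shEZH2 replicate 2 or shE2F1 replicate 2, and leaving out 1 library brought the members that passed from 13 to 14 in 1 fit and to between 7 and 8 in the other 3.

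The inhibitor left no member past the threshold. In GSK126 against DMSO 0 of 33 members passed, as did 0% of the 14632 genes tested, and 0 members were at an unadjusted p under 0.05 in edgeR. The median log2 fold change of the members was 0.04 and the range -0.15 to 0.26. All 33 of the 95% intervals lay within 2-fold, and their outer bounds were -0.67 for ATM and 0.64 for FANCL. Of all genes, 577 were at an unadjusted p under 0.05 in edgeR, and DESeq2 passed 13 genes and 0 members. With the replicate number as a block, 7.96% of all genes passed and still 0 members, with 7 at an unadjusted p under 0.05 and the lowest adjusted p 0.0251 for FANCE. Replicate 1 of both drug groups has a record in the earlier set of records and replicate 2 in the later set alone. Within replicate 1 the median of the members was 0.05, and within replicate 2 it was 0.03.

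The members called in the knockdowns had intervals that included 0 in the drug libraries. FANCD2 was at 30.4 and 30.8 CPM with DMSO and 32.1 and 31.5 with GSK126, FANCF at 7.11 and 8.92 and at 8.08 and 7.84, and BRCA1 at 47.9 and 41.7 and at 44.03 and 40.4. The intervals of their log2 differences were -0.23 to 0.34 for FANCD2, -0.45 to 0.43 for FANCF and -0.42 to 0.24 for BRCA1. BRCA2 varied between replicates more than between treatments, at 40.7 and 33.1 CPM with DMSO and 46.6 and 30.4 with GSK126. PALB2 was at 21.8 and 21.5 CPM against 21.1 and 18.7 (95% interval of the log2 difference -0.44 to 0.20). FANCI was at 88.5 and 83.1 against 88.6 and 94.2 (-0.18 to 0.36), and ATR at 56.3 and 47.9 against 56.6 and 47.8 (-0.36 to 0.36). For FANCI and PALB2 the groups did not overlap, by a narrow margin, and for ATR they did. ATM was at 128 and 88.5 CPM with DMSO and at 114 and 83.9 with GSK126, again highest in replicate 1 of each group, while CHEK1 was at 56.7 and 56.2 against 62.0 and 56.0 and CHEK2 at 8.97 and 7.85 against 9.08 and 8.25.

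The depletion of EZH2 and its inhibition were then compared in 1 fit of the 10 libraries, as the shEZH2 effect minus the GSK126 effect. Of the members, 6 were lower and 0 higher, against 11.6% and 9.35% of the 15773 genes tested, and 2 were called lower and 0 higher, against 8.67% and 5.13%. FANCD2 differed by -1.43 ± 0.20 (edgeR adjusted p = 0.00025) and FANCF by -1.37 ± 0.30 (edgeR adjusted p = 0.00375; ± is the SE). The other 4 were all of the strand exchange group: RAD51C (-0.89), RAD51D (-0.82), XRCC2 (-0.78) and RAD51AP1 (-0.69). BRCA1, at -0.64, did not pass (adjusted p = 0.0173). With the replicate number as a block, 10 members were lower, BRCA1 among them, and 1, FANCC, was higher. With the effective length offset 2 members passed, and FANCD2 was not among them. Shares of all genes were not counted with the block or with the offset in this comparison, so these counts have no background. Without shEZH2 replicate 2 or control shRNA replicate 2 the members that passed came down to 1, FANCD2 in both fits, and without DMSO replicate 1 to 2.

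**Figure D4:**
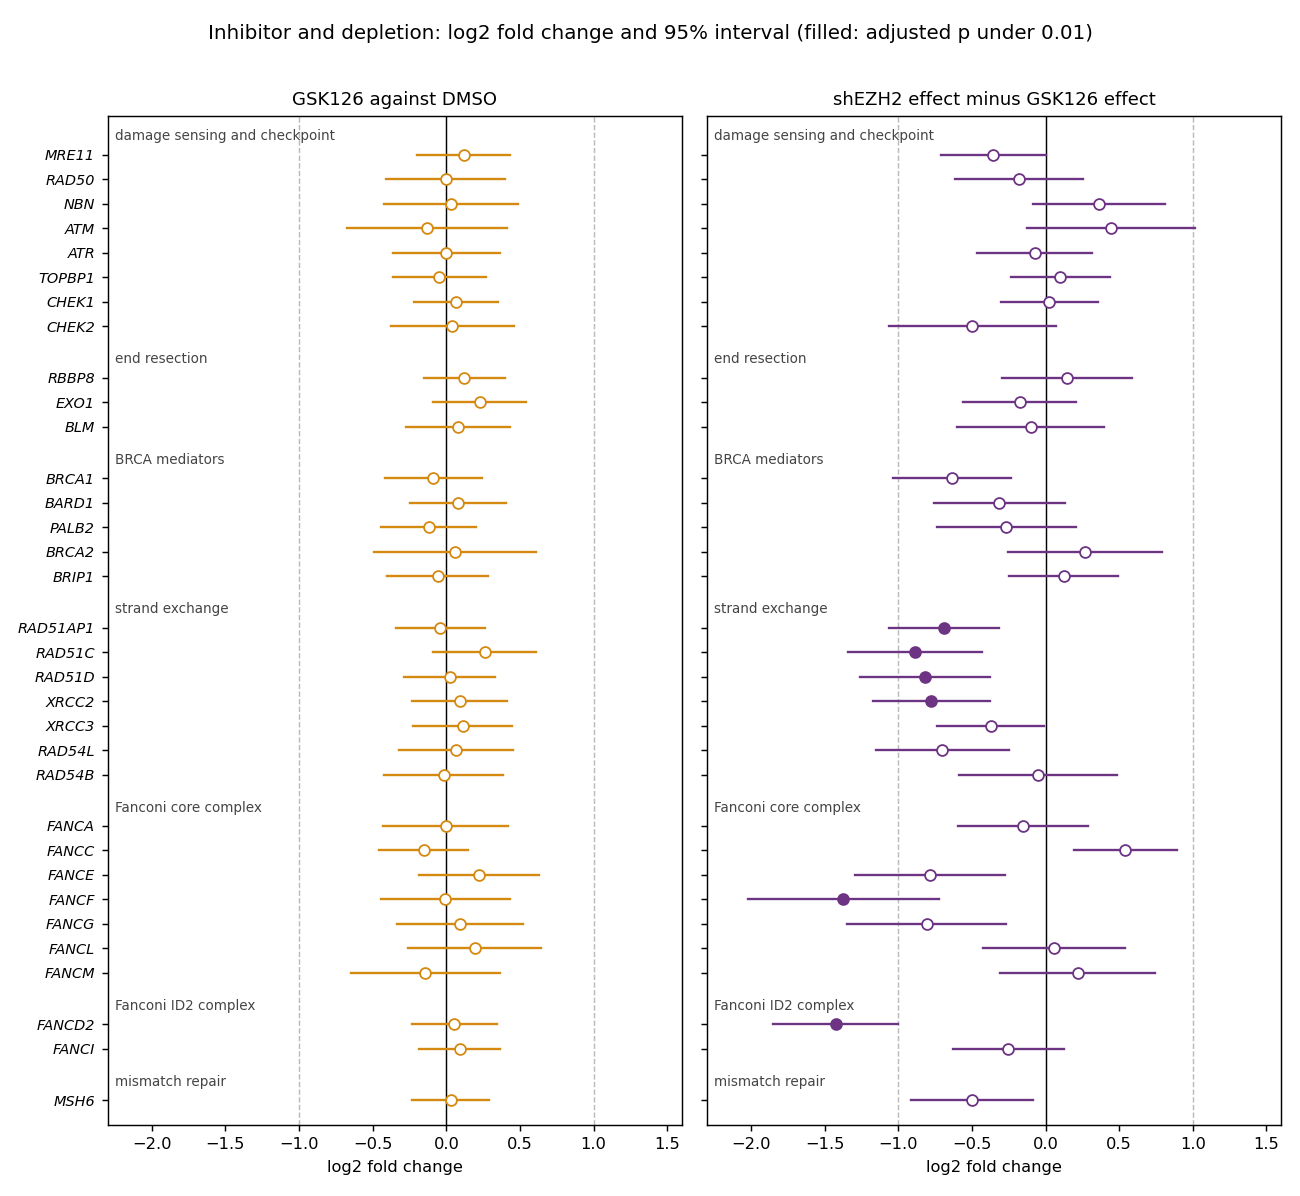
Log2 change (x axis) with its 95% interval for each member, ordered by role, for GSK126 against DMSO (left) and for the shEZH2 effect minus the GSK126 effect (right), with filled points at an adjusted p under 0.01. No point is filled on the left, where values lie between -0.15 and 0.26; on the right 6 are filled, all below 0, with FANCD2 at -1.43.

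In all, 14 members passed in none of the 5 comparisons: ATM, ATR, BARD1, BLM, CHEK2, EXO1, FANCC, FANCI, FANCM, MSH6, PALB2, RAD54B, RBBP8 and TOPBP1. The share of all genes that passed in none was not counted. With the GC and length correction ATR, BARD1, FANCI, MSH6 and PALB2 fell in shEZH2 (edgeR adjusted p from 0.000386 to 0.00448). TOPBP1, the activator of ATR, lay between 72.4 and 107 CPM over the 10 libraries, and the nuclease EXO1 between 29.6 and 52.7. The highest values of both were in shE2F1 libraries and the lowest in drug or solvent libraries. FANCM, the DNA translocase that anchors the core complex, lay between 14.9 and 23.3 CPM, and FANCC, a core subunit, between 22.3 and 41.9, with its highest value in shEZH2 replicate 1. RBBP8, which starts resection, was at 77.4 and 98.9 CPM in control, and MSH6 at 172 and 125 in the shEZH2 libraries, so that replicates of both differed widely.

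Of 60 further genes of both pathways, 17 fell and 8 rose in shEZH2, with a median of -0.17. These were 28.3% and 13.3%, against 21.5% and 20.2% of all genes tested. Of the 60, 8 were called lower and 0 higher, against 10.7% and 7.52% of all genes. The largest falls were in MUS81 (-1.97), a nuclease that cuts joined molecules, H2AX (-1.95), the histone marked around breaks, MAD2L2 (-1.89), a subunit of shieldin and of polymerase zeta, SLX1A (-1.89), a nuclease whose reads can be shared with its near-identical copy SLX1B, and SWI5 (-1.49), a cofactor of strand exchange. In shE2F1, 7 of the 60 fell and 11 rose, with a median of 0.13. These were 11.7% and 18.3%, against 16.5% and 13.6% of all genes. BABAM2 (-1.73) and BRCC3 (-1.31), subunits of the BRCA1-A complex, were called lower, and SWI5 and the damage adaptor MDC1 (1.03) were among those called higher. With GSK126, 0 of the 60 passed. SWI5 stood at 11.01 and 10.01 CPM in control, 4.82 and 2.88 in shEZH2 and 30.1 and 29.7 in shE2F1 libraries, and it was the 1 gene of the list called in both knockdowns.

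Markers of the cell cycle moved in both knockdowns, and their part in the members' changes was not tested. Of 39 S phase markers (4 members left out, and 4 of the rest also in the list of further pathway genes), 24 fell and 1 rose in shEZH2, with a median of -0.58, and 9 fell and 1 rose in shE2F1, with a median of 0.03. Of 54 G2/M markers, 28 fell and 1 rose in shEZH2 (median -0.39), and 45 fell and 0 rose in shE2F1 (median -0.85). With GSK126 the medians were 0.07 and 0.02. Of all genes tested, 21.5% fell and 20.2% rose in shEZH2, and 16.5% fell and 13.6% rose in shE2F1. The members' medians, -0.20 in shEZH2 and 0.04 in shE2F1, were nearer to 0 than that of the S phase markers in shEZH2 and that of the G2/M markers in shE2F1.

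**Figure D5:**
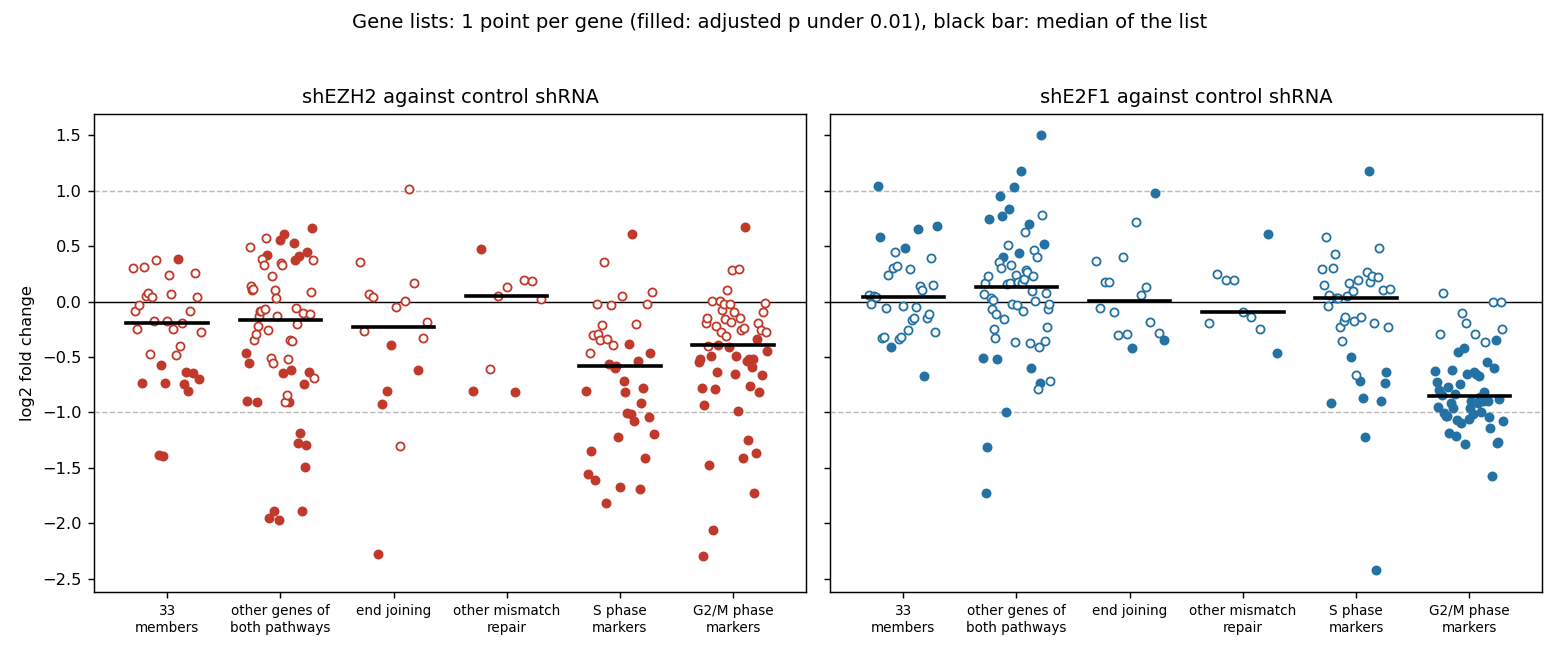
Log2 fold change (y axis) of each gene of 6 lists in shEZH2 (left) and shE2F1 (right) against control shRNA, with filled points at an adjusted p under 0.01, dashed lines at 2-fold and black bars at list medians. S phase markers have the lowest median on the left (-0.58) and G2/M markers on the right (-0.85), and the members' bars are at -0.20 and 0.04.

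Some members' counts carry a limit of their own. RAD50 shares 73.0% of its 50-base stretches with an overlapping read-through gene and RAD54B 63.3% with FSBP, so that reads could be divided between them. RAD51D shares 8.62% of its stretches with other genes. The kit was strand-specific but the strand setting of the counting is not given in the sources used here. Exons of XRCC3 overlap KLC1 on the other strand over 5756 bases, those of MSH6 overlap FBXO11 over 4022 and those of FANCA overlap ZNF276 over 2409. Those of ATR overlap EIF2AK1P1 over 2048, those of NBN overlap OSGIN2 over 827 and those of RAD54L overlap LRRC41 over 813. The deposited TPM, which use the effective length of each library, gave the same direction of the group means for all 11 members that passed in shEZH2 and all 7 in shE2F1. For RAD54L, however, TPM were 27.3 and 26.9 in control and 28.9 and 24.6 in shEZH2 libraries, overlapping groups, where its CPM fell. On the TPM scale all genes tested shifted by a median log2 ratio of 0.17 in shEZH2 and 0.22 in shE2F1, and the members by 0.11 and 0.30.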

How the data were processed

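Poly(A)-selected RNA from MDA-MB-231 cells gave 10 distinct libraries, 2 per group. Of the 18 sample records, 8 repeated another value for value and were counted once. Group and replicate of each record were read from its label. The authors mapped reads to hg38 (GRCh38) with STAR and an Ensembl annotation (release 108) and estimated abundance with RSEM; the submitters' processing notes name STAR 2.7.2b and RSEM 1.3.1. The deposited files hold RSEM expected counts, TPM and effective lengths per gene. Effective length is a score of gene length per library that the authors' RSEM run set from its transcript estimates. Of the gene identifiers, 99.9% were found in GENCODE release 44.

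Expected counts were rounded and tested in R 4.3.3 with edgeR 4.0.16 (filterByExpr, TMM, quasi-likelihood F-test, Benjamini-Hochberg over all genes tested), with 6 knockdown libraries in 1 fit, 4 drug libraries in another and all 10 for the difference of effects. CPM are TMM-scaled; intervals are at 95%. No TPM was tested. Fitted intervals include the spread between libraries, the floor of 3 counts covers counting error only, and the scripts were tested on simulated counts. Alternatives were DESeq2 1.42.0, its size factors, no filter, other sets of libraries, a replicate block, a GC and length correction (natural splines with 5 df each, fitted per library and used as an offset), effective lengths as an offset, other thresholds and leaving out each library.

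The members and lists were chosen with earlier results of these data known. Every library's value is given for members called in any comparison and for BRCA1, BRCA2, PALB2, FANCD2, FANCI, ATM, ATR, CHEK1 and CHEK2; of the other lists, at most the 5 called genes with the largest change in each direction are named. Some genes of these lists are not reported here.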

Additional observations from a re-analysis of the deposited data

How the results depend on the processing

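The counts of members called and of members that passed at any fold were recomputed under each alternative. Shares of all genes were counted only for the main fits and for alternatives of GSK126, so the other counts below have no background. With the GC and length correction, alone or with the replicate block, 4 members were called and 17 passed in shEZH2, 20 passed between shEZH2 and shE2F1, and 6 were called in the difference of the shEZH2 and GSK126 effects, where 12 passed without the block and 16 with it. The effective length offset, chosen after seeing the data, left 7 that passed in shEZH2, 0 called in shE2F1, and 1 called and 2 that passed in the difference. FANCD2 was not among those 2. NBN in shEZH2 turned to -0.065 under the GC and length correction, alone and with the block, as did BRIP1 between the knockdowns, to -0.11 in both. The fit of all 10 libraries passed 4 members in shE2F1. The cause of these shifts was not tested.

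Leaving out 1 library gave 2 called and 6 to 11 that passed in shEZH2, 0 to 1 and 3 to 5 in shE2F1, 2 to 4 and 7 to 14 between the knockdowns, and 1 to 4 and 1 to 5 in the difference. At an adjusted p under 0.01 with no fold requirement, 11 members passed in shEZH2, 7 in shE2F1, 13 between the knockdowns and 6 in the difference; under 0.05 these were 15, 13, 17 and 11, and under 0.01 with more than 1.5-fold 9, 4, 8 and 6. In GSK126 0 members passed at an adjusted p under 0.01 under any alternative run, and FANCE (0.0251) and EXO1 (0.0293) were under 0.05 with the replicate block. Members that passed under all alternatives numbered 6, 2, 6 and 0 in the same order of comparisons.

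The labels give groups the same replicate numbers, but the deviations of same-numbered libraries correlated at 0.03 (control and shEZH2), 0.01 (control and shE2F1), 0.14 (shEZH2 and shE2F1) and 0.51 (DMSO and GSK126), and with 2 replicates the numbers were not taken to pair samples. With the replicate block, 11 members passed in the difference, in place of 6: BRCA1 (edgeR adjusted p = 0.0056), RAD54L, FANCE and FANCG were added as lower and FANCC (0.54) as higher, and the block changed no count of called members. A member at 2 to 9 CPM, such as FANCF, rests on few reads and has the widest interval in shEZH2, -1.93 to -0.86.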

Other observations

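Genes of neighbouring repair routes were also measured. Of 16 genes of nonhomologous end joining, 5 fell and 0 rose in shEZH2, with a median log2 fold change of -0.23. These were 31.25% and 0%, against 21.5% and 20.2% of all genes tested. PAXX, which stabilises the Ku-bound end, was the 1 called, at 41.5 and 44.4 CPM in control, 9.34 and 8.58 in shEZH2 and 40.5 and 40.1 in shE2F1 libraries (log2 fold change -2.28, edgeR adjusted p = 7.95e-07 in shEZH2). Those that fell without passing 2-fold were POLL (-0.92), POLM (-0.81), XRCC4 (-0.62) and PRKDC (-0.40), named after their values were seen. In shE2F1, 2 of the 16 fell and 1 rose (12.5% and 6.25%, against 16.5% and 13.6% of all genes). XRCC4, the scaffold of the ligase that joins ends, was the one that rose (0.98), and XRCC6 (-0.35) and RIF1 (-0.42) fell.

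Of 9 further genes of mismatch repair, 2 fell and 1 rose in shEZH2, with a median of 0.054, and none was called. These were 22.2% and 11.1%, against 21.5% and 20.2% of all genes tested. Those that fell were PCNA (-0.82) and LIG1 (-0.80), both also used in replication. In shE2F1 RFC1 fell (-0.46) and PMS2 rose (0.61). With GSK126, 0 genes of either list passed.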
